A study of Mus musculus with 8 samples.

Results

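The genes described are the mouse p53 gene Trp53, the gene pair Mdm2 and Mdm4 that restrains it, and 6 of its direct targets, Cdkn1a, Phlda3, Ccng1, Btg2, Sesn2 and Zmat3. They are 9 of the 13110 genes with an N6-methyladenosine (m6A) peak in either of the peak lists of the study. Every peak filed under the Ensembl identifier of one of these genes was taken, which gave 17 of 27612 peaks in the Dox list and 19 of 25815 peaks in the control list. Identifiers were matched to symbols by gene location and strand on mm10.

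The study mapped m6A, a methyl group on adenosines of messenger RNA, in mouse embryonic stem cells that carry a doxycycline (Dox)-inducible knockdown of Setd2. SETD2 places the trimethyl mark on lysine 36 of histone H3 along transcribed genes. The Dox group received Dox at 1 µg/ml over 4 days and the control group carried the same inducible knockdown but received no Dox. Both groups grew as feeder-free spheres in serum-free 2i medium containing the MEK inhibitor PD0325901 at 1 µM, the GSK3 inhibitor CHIR99021 at 3 µM and LIF at 1000 U/ml. Each group had 2 replicates, with 1 antibody pulldown (IP) library and 1 input library per replicate, so 8 libraries in all. Dox-treated cells without the knockdown construct were not analysed here, and the knockdown and Dox itself cannot be told apart. The labels do not say whether the cells were 1 clone or whether the replicates were separate cultures.

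Each condition is represented by 1 list of peaks that the authors called on both replicates together. There is therefore no replicate spread, no difference between the conditions was tested, and all comparisons describe these 2 lists. The reads behind each library and peak are unknown. Setd2 had 6 peaks in the Dox list and 10 in the control list, but a peak list holds no transcript level and does not check the knockdown. Of 11 embryonic stem cell marker genes, 11 had peaks in both lists. Of 9 markers of differentiated cells, 2 had peaks in the Dox list (Nes and Eomes) and 5 in the control list (T, Gata4, Pax6, Nes and Cdx2). Of 5 fibroblast markers 2 had peaks in each (Col1a1 and Vim). Their part in the results was not tested.

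p53 is a transcription factor that is held low by MDM2, a ubiquitin ligase that marks it for destruction, and by MDM4, which binds and inhibits it. After DNA damage or other stress p53 is released and switches on genes that stop the cell cycle, repair damage, restrain growth signals or kill the cell, and Mdm2 is itself a target, which closes a negative loop. Embryonic stem cells contain much p53 and have a short first gap phase of the cell cycle.

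Targets of p53 are recognised by a DNA site that p53 binds in their regulatory regions, and the promoter sequences show where such a site lies near the start. RefSeq promoter windows (GRCm38.p6, from 250 nt before to 50 nt after a start) matched 8 of the 9 genes, with 10 windows. The p53 half-site, a palindromic motif that reads alike on both strands, was found in 4 of the 10 windows and in 8.36% of all 32851 windows. The genes with a match were Trp53, Mdm2, Cdkn1a and Ccng1. Capitals mark the half-sites below, each written 5′ to 3′ on the strand of its gene.
Trp53, chr11:69580269-69580308, plus strand: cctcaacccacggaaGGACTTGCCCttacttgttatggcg
Mdm2, chr10:117710920-117710959, minus strand: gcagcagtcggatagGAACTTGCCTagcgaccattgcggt
Cdkn1a, chr17:29090891-29090952, plus strand: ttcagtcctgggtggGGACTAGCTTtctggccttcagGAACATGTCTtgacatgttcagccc
Ccng1, chr11:40755447-40755486, minus strand: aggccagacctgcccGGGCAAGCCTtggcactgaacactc
The Cdkn1a window was the one member window with a pair of half-sites at most 13 nt apart, which 0.0731% of all windows held. Its half-sites begin 73 and 51 nt before the upstream Cdkn1a start, with 12 nt between them. A match describes letters only, and the marked Cdkn1a pair need not be the stretch that p53 binds. Near matches were not marked, and a window without a match says nothing about sites elsewhere in the gene.

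All 9 genes carried m6A peaks in both lists, as did 79.9% of the 13110 genes with a peak in either list. In 8 of the 9 genes the highest fold, the authors' ratio of IP over input for each peak, was lower in the Dox list, and over all genes with peaks in both lists that share was 73.6%. Mdm4 was the exception. The median of the highest folds was 5.33 in the Dox list and 9.73 in the control list for the 9 genes, against 4.86 in the Dox list and 7.16 in the control list for all genes with peaks in both. Folds and false discovery rates (FDR) were computed by the authors peak by peak, and a more negative log10 FDR is stronger support. Trp53 counts among the 8 only through a control peak of fold 4.92 at a log10 FDR of -3.4. Its other control peaks had folds of 1.3 and 2.19, against a highest Dox fold of 2.55. The highest Zmat3 folds, 6.51 in the Dox list and 29.5 in the control list, belong to peaks before its RefSeq start. The lists were made separately, so their folds are set side by side and not divided. In bulk RNA, fewer cells with methylated transcripts and less m6A per transcript cannot be told apart.

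**Figure D1:**
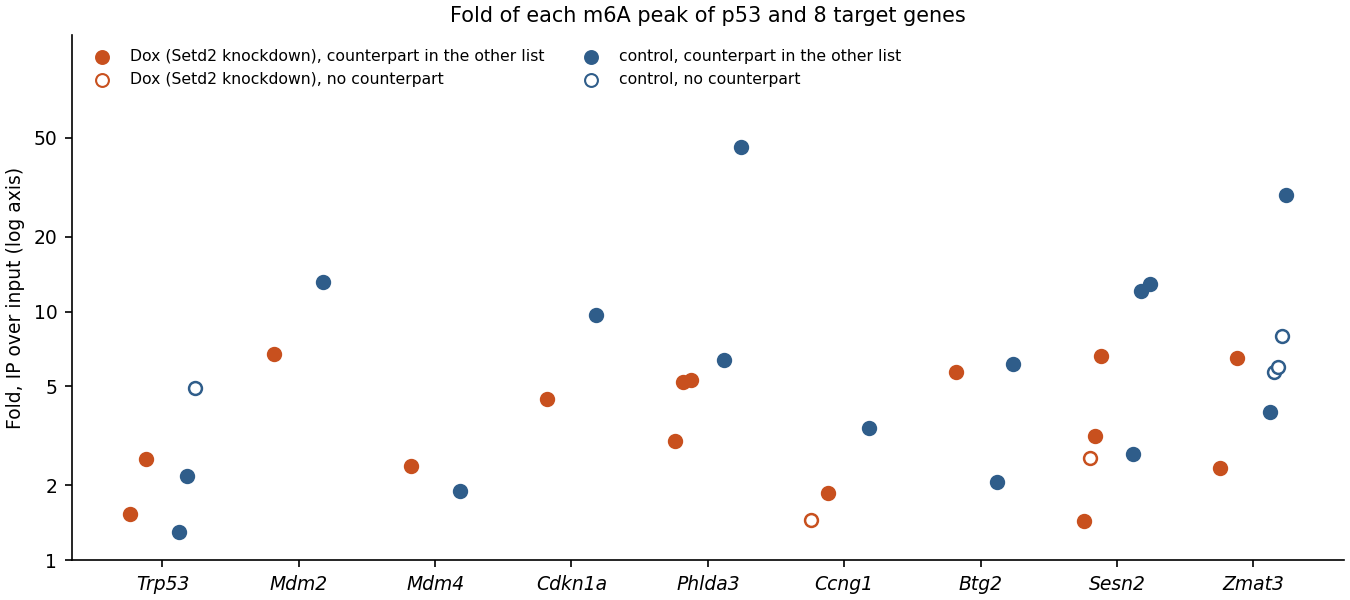
Fold of IP over input (log axis) of each peak of the 9 genes, with Dox peaks in orange on the left and control peaks in blue on the right of each gene. Open circles are peaks that share no exonic nucleotide with a peak of the other list. Of the 19 control peaks 7 (36.8%) stand above the highest Dox peak, that of Mdm2 (6.76). They lie in Phlda3 (46.1), Zmat3 (29.5 and 8), Mdm2 (13.2), Sesn2 (12.9 and 12.1) and Cdkn1a (9.73). In the whole control list 64.6% of peaks had a fold below 6.37 and 73.2% a fold below 8. The share above 6.76 was not counted there, but such folds were common in that list and not particular to these genes.

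Most peaks of these genes had a counterpart in the other list, defined as a peak with at least 1 exonic nucleotide in common on the same strand. In the Dox list 2 of the 17 peaks had none (11.8%, exact 95% interval 1.46% to 36.4%), while 29.1% of all Dox peaks had none. In the control list 4 of the 19 peaks had none (21.1%, 6.05% to 45.6%), while 19.3% of all control peaks had none. The 2 Dox peaks belong to Ccng1 and Sesn2. Of the 4 control peaks 3 belong to Zmat3 and 1 to Trp53, and without Zmat3 the control share was 1 of 14 peaks (7.14%). Among peaks with a log10 FDR of -5 or less, set against the whole other list, 1 of 14 Dox peaks had no counterpart (7.14%, against 11.6% of all such Dox peaks). The same threshold left 1 of 15 control peaks without one (6.67%, against 7.56% of all such control peaks). With the threshold on both lists, 2 of 14 Dox peaks (14.3%, against 22.3% of all) and 3 of 15 control peaks (20%, against 21% of all) had none. Intervals are Clopper-Pearson and cover counting error only, and peaks of 1 gene share a transcript. The intervals for the 17 Dox peaks and the 19 control peaks both include the share over their whole list.

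Where peaks of the lists overlapped, the Dox peak mostly had the lower fold. Among the 16 overlapping pairs of Dox and control peaks in these genes, the Dox fold was the higher one in 3 (18.8%), compared with 35.8% of all 22933 pairs. Those 3 were the first Trp53 pair, the Mdm4 pair and the 5′ Btg2 pair. In them the shared nucleotides made up 45.8%, 25.2% and 20.1% of the Dox peak, but 100% of each control peak. Their folds therefore cover unlike stretches, and the Btg2 Dox peak also spans the downstream control peak, of fold 6.15. The Dox p-value was the stronger one in 4 of the 16 (25%, 7.27% to 52.4%), compared with 43.6% of all pairs. Both intervals include the share over all pairs, and some pairs share a peak, as in Phlda3 and Btg2. Per gene, the strongest p was weaker in the Dox list for 6 of 9 genes, close to the 65.8% over all genes with peaks in both. Trp53, Mdm4 and Btg2 were the genes in which the strongest p was in the Dox list.

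**Figure D2:**
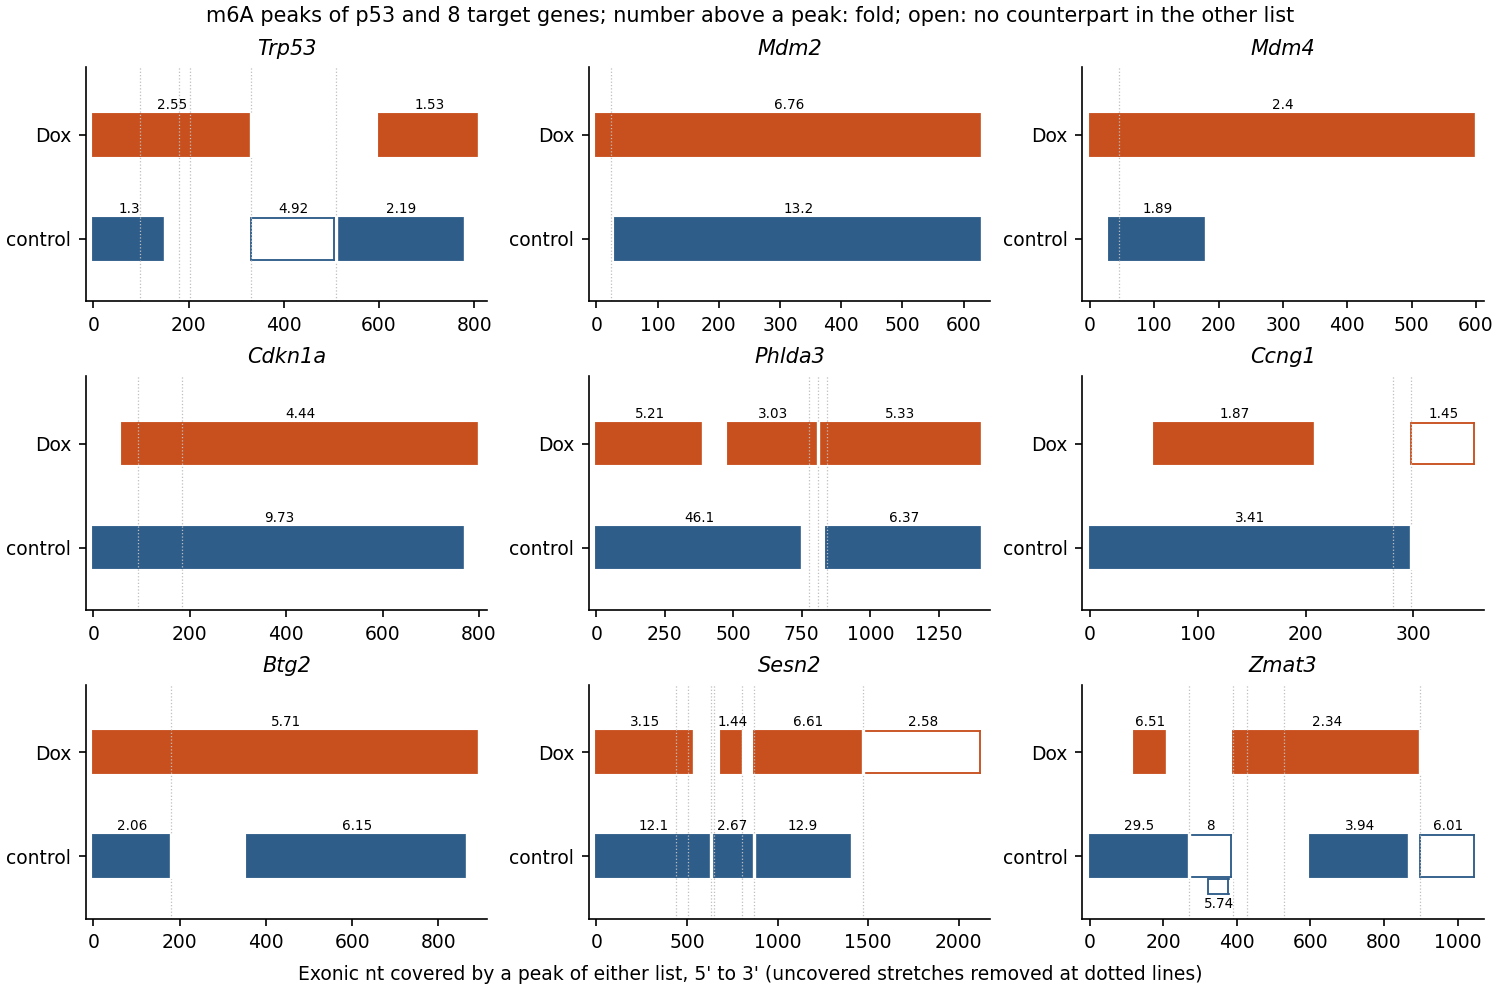
Map of all peaks of each gene on its exonic nucleotides covered by either list, drawn 5′ to 3′, with the Dox row above the control row, the fold above each peak and intervening sequence removed at the dotted lines. Open bars have no counterpart in the other list, as for the control peaks of folds 4.92 in Trp53 and 6.01, 8 and 5.74 in Zmat3.

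Trp53 itself (ENSMUSG00000059552.13, chr11:69580348-69591873, plus strand) had a better supported 5′ peak in the Dox list. The first Dox peak, at chr11:69580419-69587499, joined 4 exonic blocks of 330 nt in all and had a fold of 2.55 at a log10 FDR of -179. The first control peak began at the same nucleotide and ended at 69586944, with 2 blocks of 151 nt, a fold of 1.3 at a log10 FDR of -7.19. The control peak lay wholly inside the Dox peak. By p-value the Dox peak was stronger than 96.7% of the Dox list and the control peak stronger than 45.5% of the control list.

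Further along Trp53 the order was the other way. The second Dox peak, chr11:69589704-69589914, had a fold of 1.53 at a log10 FDR of -16.6. The third control peak, chr11:69589614-69589884, shared 181 nt with it and had a fold of 2.19 at a log10 FDR of -48.4. The second control peak, chr11:69588069-69588248, had no Dox counterpart. Its fold of 4.92 was the highest of the gene, but its log10 FDR of -3.4 was the weakest, and 23.2% of control peaks had a weaker p.

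High folds of weakly supported peaks were coarse. Among peaks with a log10 FDR above -8 and a fold from 8 to 40, 80.4% of the Dox values lay on whole multiples of a step of about 1.08. Of the control values 77.3% lay on whole multiples of about 1.23 (within 0.005 for folds under 10 and 0.05 above, plus 0.0003 per step). Both steps are rounded here, and multiples were taken of the unrounded steps. The unpaired Trp53 control peak, with a fold below that range, stood at 4 such steps. Other weak member peaks fell between steps, such as the Zmat3 control peaks of folds 8, 5.74 and 6.01, at 6.5, 4.67 and 4.89 steps. A Trp53 pseudogene (Trp53-ps) and an Mdm4 pseudogene (Mdm4-ps) are annotated elsewhere in the genome, and reads of Trp53 and Mdm4 could be divided with these copies.

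The inhibitors of p53 differed from each other in how well they were marked. Mdm2 (ENSMUSG00000020184.14, chr10:117688875-117710758, minus strand) had 1 strong peak in each list at nearly the same place. The Dox peak at chr10:117690178-117691167 covered 631 exonic nt with a fold of 6.76 and a log10 p of -176. The control peak at chr10:117690178-117690778 covered 601 nt with a fold of 13.2 and a log10 p of -384. Both ended at the same nucleotide on the 3′ side, and all 601 control nucleotides lay in the Dox peak. Within each list the place of Mdm2 was alike, since 86.1% of Dox peaks and 86.8% of control peaks had a lower fold.

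Mdm4 (ENSMUSG00000054387.13, chr1:132986105-133030587, minus strand) was weakly marked in both lists. The Dox peak at chr1:132991672-132994548 covered 600 exonic nt with a fold of 2.4 at a log10 FDR of -5.59. The control peak at chr1:132992091-132994518 covered 151 nt, all inside the Dox peak, with a fold of 1.89 at a log10 FDR of -2.49. With all peaks counted, Mdm4 was the only member with a higher top fold in the Dox list. Its values were low in both, since 23.9% of Dox peaks and 6.72% of control peaks had a lower fold.

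Of the targets that act on the cell cycle, Cdkn1a had the best supported peak of all 9 genes in each list. Cdkn1a (ENSMUSG00000023067.13, chr17:29090979-29100722, plus strand) encodes p21, the inhibitor of cyclin-dependent kinases through which p53 halts the cell cycle. The Dox peak at chr17:29091068-29098824 joined 3 blocks of 742 nt, with a fold of 4.44, a log10 p of -485 and rank 185 by p. The control peak at chr17:29091009-29098794 joined 3 blocks of 771 nt, with a fold of 9.73, a log10 p of -1480 and rank 98. The peaks shared 712 nt, and thus lay at nearly the same place. A lower fold was held by 65.4% of Dox peaks and by 79.3% of control peaks.

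Ccng1 (ENSMUSG00000020326.7, chr11:40748552-40755309, minus strand), the cyclin G1 gene, was the least marked target. Cyclin G1 brings a phosphatase to MDM2 and so feeds back on p53. The Dox list held a peak at chr11:40755073-40755222 with a fold of 1.87 at a log10 FDR of -2.39. The control peak at chr11:40754052-40755281 overlapped it and had a fold of 3.41 at a log10 FDR of -15.2. A second Dox peak, chr11:40750903-40750962, had no control counterpart and was weak, with a fold of 1.45 at a log10 FDR of -2.01 and 8.17% of Dox peaks at a weaker p. The authors' shorter list of each condition keeps only peaks whose p is 1e-05 or lower and whose fold is 2 or higher. Ccng1 had no peak in the shorter Dox list and 1 peak in the shorter control list.

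Btg2 (ENSMUSG00000020423.6, chr1:134074865-134079155, minus strand) encodes an antiproliferative protein that binds the CCR4-NOT deadenylase complex. A single Dox peak at chr1:134076988-134079090 covered 895 exonic nt with a fold of 5.71 at a log10 FDR of -40.2. It spanned both control peaks of the gene. The 5′ control peak, chr1:134077703-134079090, had a fold of 2.06 at a log10 FDR of -5.87, and the downstream one, chr1:134077018-134077525, a fold of 6.15 at a log10 FDR of -22.4. The top folds of Btg2 were therefore close, at 5.71 in the Dox list and 6.15 in the control list, and all 688 control nucleotides were covered in the Dox list.

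Among the targets that restrain growth signals, Phlda3 had the peak of highest fold of all 9 genes, in the control list. Phlda3 (ENSMUSG00000041801.5, chr1:135766085-135769134, plus strand) encodes a small lipid-binding protein that keeps the kinase AKT from the membrane. The Dox list split its first part into a peak at chr1:135766119-135766508, with a fold of 5.21 at a log10 FDR of -9.75, and one at chr1:135766598-135767167, with a fold of 3.03 at a log10 FDR of -45.8. The control list held 1 peak of 750 nt there, chr1:135766119-135766868, with a fold of 46.1 at a log10 FDR of -188. That control fold exceeded those of 99.7% of the control list and ranked 87.

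The 3′ peak of Phlda3 was alike in the lists. The Dox peak at chr1:135767227-135769046 had a fold of 5.33 at a log10 FDR of -220, and the control peak at chr1:135767257-135769046 had a fold of 6.37 at a log10 FDR of -316. The Dox peak held every nucleotide of the control peak. Within 1 gene and 1 pair of lists, then, the folds of the 5′ stretch were far apart and those of the 3′ stretch were near each other.

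Sesn2 (ENSMUSG00000028893.8, chr4:132492804-132510456, minus strand) encodes sestrin 2, a leucine sensor that restrains mTORC1, and had the longest marked length of the 9 genes. Its 5′ Dox peak, chr4:132499928-132510501, had a fold of 3.15 at a log10 FDR of -9.5. The control peak there, chr4:132499838-132510501, had a fold of 12.1 at a log10 FDR of -222. Both began at the same nucleotide, 45 nt before the RefSeq start.

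The later Sesn2 peaks were also lower in fold in the Dox list. The middle Dox peak, chr4:132497481-132498063, had a fold of 1.44 at a log10 FDR of -8.09, against 2.67 and -57.3 for the control peak at chr4:132497421-132498956. Towards the 3′ end the Dox peak at chr4:132493110-132493709 had a fold of 6.61 and a log10 p of -339, and the control peak at chr4:132493170-132493709 a fold of 12.9 and a log10 p of -497. The Dox list held 1 more peak at chr4:132492361-132493020, with a fold of 2.58 at a log10 FDR of -33.8, that had no control counterpart. It reaches 443 nt beyond the RefSeq end of the gene, and it was the 1 well supported peak of the 9 genes called in the Dox list alone.

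Zmat3 (ENSMUSG00000027663.12, chr3:32334792-32365665, minus strand) encodes a zinc finger protein that binds RNA and regulates splicing, and it had the most control peaks without a counterpart. At the 5′ side the Dox list held a peak of 90 nt, chr3:32365806-32365895, with a fold of 6.51 at a log10 FDR of -2.12, which equals 6 of the steps described above. The control peak there, chr3:32365746-32366014, had a fold of 29.5, or 24 steps, and a log10 FDR of -7.11. Both lie before the RefSeq start of Zmat3 and inside the interval of 4930429B21Rik, a noncoding RNA gene on the plus strand. The library kit keeps the strand, per the labels' protocols, but no source used here says whether reads were counted by strand, so reads of these genes may not be separable.

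Just inside Zmat3 the control list held a pair of nested weak peaks with no Dox counterpart, chr3:32365359-32365478 with a fold of 8 at a log10 FDR of -2.42, and chr3:32365365-32365425 with a fold of 5.74 at a log10 FDR of -2.09. Downstream, the Dox peak at chr3:32341325-32343589 had a fold of 2.34 at a log10 FDR of -16.1, and the control peak at chr3:32341355-32341624 a fold of 3.94 at a log10 FDR of -34.8. The third unpaired control peak, chr3:32340396-32340546, had a fold of 6.01 at a log10 FDR of -7.08. It was the 1 control peak of the 9 genes at a log10 FDR of -5 or less with no Dox counterpart.

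**Figure D3:**
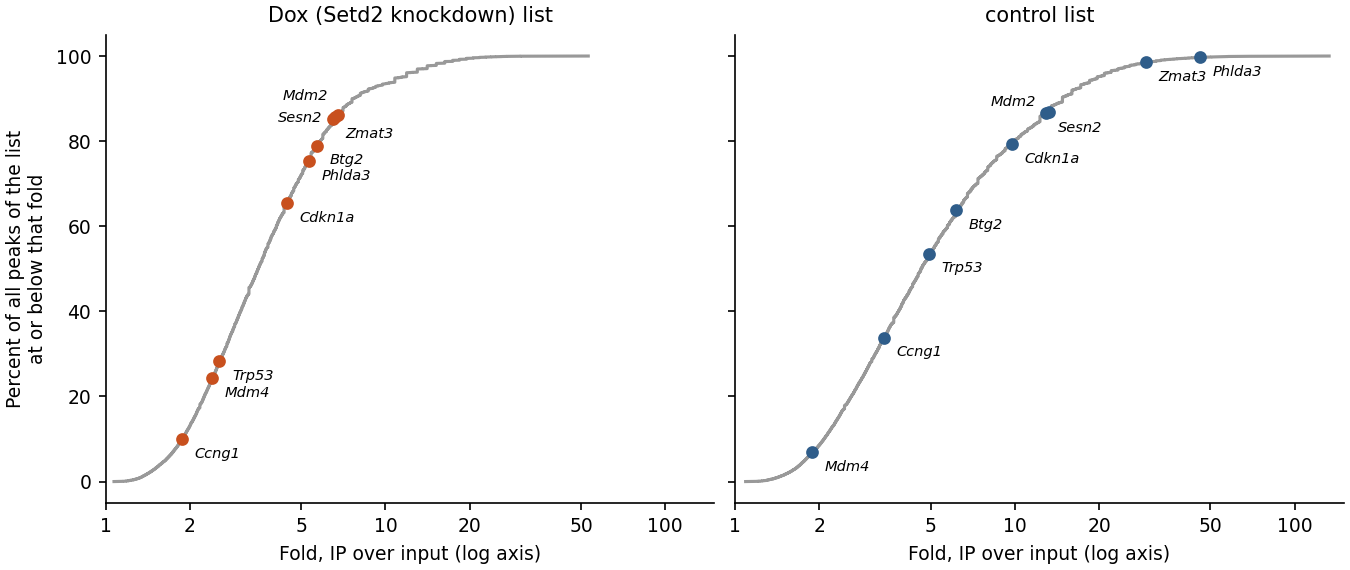
Place of the highest fold of each of the 9 genes (points) among all peaks of its own list (grey line), with the Dox list on the left and the control list on the right; the x axis is the fold on a log axis and the y axis the percentage of peaks at or below it. Phlda3 and Zmat3 lie at the top of the control list, at folds of 46.1 and 29.5, and lower in the Dox list, at 5.33 and 6.51. The Phlda3 folds are those of its 5′ peak in the control list and its 3′ peak in the Dox list. Both Zmat3 peaks lie before the RefSeq start, and the Dox one is weak (log10 FDR -2.12).

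Some of the members' peaks lay near the start of the gene. Within 500 nt of the RefSeq start lay 3 of the 15 Dox peaks that could be placed (20%, exact 95% interval 4.33% to 48.1%) and 7 of the 18 placed control peaks (38.9%, 17.3% to 64.3%), against 7.75% of all placed Dox peaks and 13.1% of all placed control peaks. The 7 control peaks include the nested Zmat3 pair. Within 200 nt lay 1 of the 15 Dox peaks (6.67%, 0.169% to 31.9%) and 3 of the 18 control peaks (16.7%, 3.58% to 41.4%), against 3.96% of all placed Dox peaks and 7.17% of all placed control peaks. Only the control interval at 500 nt lies above the share over all peaks. That is no test, because the intervals count peaks as independent. Peaks of 1 gene share a transcript, and the nested Zmat3 pair covers the same nucleotides. Of the 7 control peaks 2 had no Dox counterpart, both in Zmat3 (28.6%, against 38.5% of all control peaks at gene starts). The other 5 were overlapped by Dox peaks, of which those of Trp53 and Btg2 reach far enough downstream that their midpoints fall outside the window. The last 1000 nt of the genes held 2 Dox peaks and 2 control peaks, those of Phlda3 and Sesn2.

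The start sequences show how the peaks sit on the promoter windows. The windows of Phlda3 and Sesn2 and the downstream window of Cdkn1a overlapped peaks of both lists, by 16, 95 and 47 nt, and the windows of Ccng1 and of the upstream Cdkn1a start overlapped a control peak only, by 45 and 20 nt. The first of these control-only windows is shown. In each sequence the capitals are the bases inside those peaks, and the last 50 bases are transcribed from the RefSeq start.
Phlda3, chr1:135766025-135766134, plus strand: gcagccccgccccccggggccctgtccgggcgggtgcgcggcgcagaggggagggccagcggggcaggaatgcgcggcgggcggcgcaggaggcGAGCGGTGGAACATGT
Sesn2, chr4:132510407-132510516, minus strand: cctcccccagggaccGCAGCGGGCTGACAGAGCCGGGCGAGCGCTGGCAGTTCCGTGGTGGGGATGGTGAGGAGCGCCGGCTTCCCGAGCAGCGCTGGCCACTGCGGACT
Cdkn1a, chr17:29093709-29093818, plus strand: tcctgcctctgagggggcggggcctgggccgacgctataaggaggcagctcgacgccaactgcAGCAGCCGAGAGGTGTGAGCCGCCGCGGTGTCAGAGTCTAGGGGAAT
Ccng1, chr11:40755237-40755346, minus strand: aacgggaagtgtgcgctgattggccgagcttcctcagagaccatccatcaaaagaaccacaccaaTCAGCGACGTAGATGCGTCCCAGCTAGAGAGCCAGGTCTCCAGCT
GGAC, the core of the sequence that the m6A writer complex prefers, was searched on the transcript strand of the 50 transcribed bases. It occurred in the windows of Mdm2 and Sesn2 (2 of 10, against 18.9% of all windows). GGACT, which contains it, occurred in the Sesn2 window only (1 of 10, against 5.76% of all windows) and closes the Sesn2 sequence above, inside both its peaks.

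The marked nucleotides were shared to a widely differing degree. Peaks covered 7461 exonic nt of the 9 genes in the Dox list and 6652 nt in the control list, of which 5426 nt were common to both. This was 62.5% of the nucleotides covered in either list, against 59.9% over all genes with peaks in both. Mdm2 (95.2%), Cdkn1a (88.9%) and Phlda3 (87.3%) had nearly the same footprint in the lists, and Btg2 had 76.9%. Sesn2 shared 56.4%, Ccng1 41.9%, Trp53 40.9%, Zmat3 34.3% and Mdm4 25.2%. The median was 56.4% for the 9 genes and 59.2% for all genes with peaks in both, and 4 of the 9 lay above that median. Peaks of these genes were also wider in the Dox list, with a median exonic width of 510 nt in the Dox list and 270 nt in the control list, against 240 nt for all Dox peaks and 211 nt for all control peaks.

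**Figure D4:**
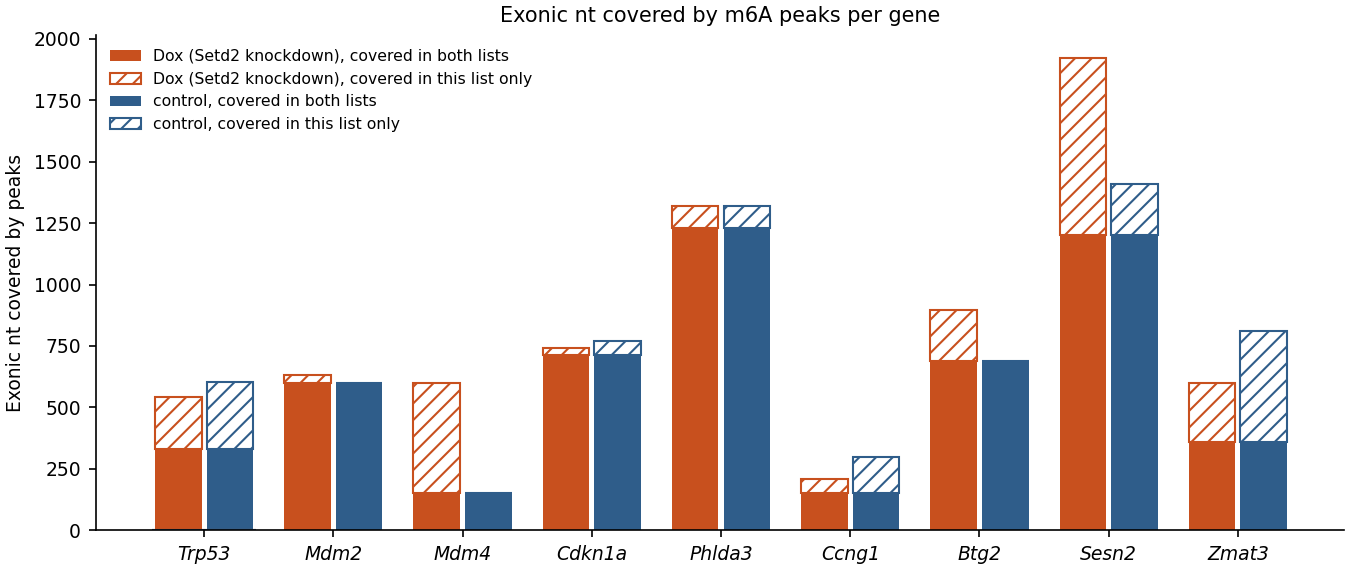
Exonic nucleotides covered by peaks in each of the 9 genes, with the Dox bar left of the control bar, the part covered in both lists filled and the part covered in that list only hatched. Mdm2, Cdkn1a and Phlda3 are nearly all filled, and Mdm4 has 600 nt in the Dox list against 151 nt in the control list.

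By share, more of the members' peaks than of the whole lists passed a strict threshold of support, but the counts are small and no interval was computed. At a log10 FDR of -5 or less stood 14 of the 17 Dox peaks (82.4%) and 15 of the 19 control peaks (78.9%), against 56.9% of all Dox peaks and 64.3% of all control peaks. Peaks of 2 or more exonic blocks made up 10 of the 17 Dox peaks (58.8%) and 8 of the 19 control peaks (42.1%), against 42.7% of all Dox peaks and 41.2% of all control peaks.

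The rest of the p53 pathway was taken from a textbook list of 69 other genes, of which 59 had a peak. Peaks in both lists were found in 54 of the 59 (91.5%, against 79.9% of all genes with a peak). The sets are unlike, since pathway genes come from the 10610 identifiers matched to a protein-coding symbol. The shares over all genes run over all 13110 identifiers, with or without a symbol. In the Dox list alone were peaks of 4 genes (6.78%, against 11.1% of all genes with a peak) and in the control list alone a peak of 1 (1.69%, against 8.92% of all). Both counts are small, and neither their order nor the order over all genes held at stricter thresholds. The highest fold was lower in the Dox list in 42 of the 54 (77.8%, against 73.6% of all). Of their peaks, 37 of 156 in the Dox list (23.7%) and 18 of 144 in the control list (12.5%) had no counterpart, below the 29.1% of all Dox peaks and the 19.3% of all control peaks. A gene without a peak may be unexpressed, unmarked or unmatched by location.

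The roles hold too few genes to set their shares apart from those over all genes with a peak (79.9% in both lists, 11.1% in the Dox list only and 8.92% in the control list only), so only counts are given. The kinases and sensors that signal to p53 had peaks in all 7 genes, 5 in both lists and 2 in the Dox list only. Regulators and cofactors had peaks in 18 of 19 genes, all of them in both lists, and the family members p63 and p73 in 1 of 2. Apoptosis targets had peaks in 10 of 13 genes, with 9 in both lists and 1 in the Dox list only. Other cell cycle and growth targets had peaks in 13 of 14 genes, with 11 in both, 1 in the Dox list only and 1 in the control list only. Repair and metabolism targets had peaks in 10 of 14 genes, all in both lists.

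The highest folds among the pathway genes with peaks in both lists belonged to Ier5, Sfn, Ep300 and Gadd45a. Ier5, an immediate early gene, had a highest fold of 10.8 in the Dox list and 51.7 in the control list. These Ier5 peaks lie at different places. The Dox peak, chr1:155099487-155099606, was weak (log10 FDR -1.8) and had no control counterpart. The control peak, chr1:155098356-155098802 (log10 FDR -15.8), did have a Dox counterpart, of lower fold. Gadd45a, a stress gene that restrains the cell cycle, had 9.03 in the Dox list and 19.1 in the control list, also at different places. These were chr6:67035335-67035694 (log10 FDR -67) in the Dox list and chr6:67037009-67037248 (log10 FDR -7.69) in the control list. Both of these Gadd45a peaks had a counterpart in the other list, so the lists differ in which peak had the highest fold. Ep300, the acetyltransferase that coactivates p53, had 17.4 in the Dox list and 20 in the control list. Sfn, the 14-3-3 sigma gene that holds cells before mitosis, went the other way in fold, with 21.7 in the Dox list and 12.8 in the control list. The log10 FDR of these Sfn peaks was -243 in the Dox list and minus infinity in the control list, so the control peak had the stronger support.

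Of the 5 genes found in a single list, 3 rested on a peak weaker than a log10 FDR of -5. The control list alone held a peak of Ccng2, a cyclin G1 relative, with a fold of 20.9 at a log10 FDR of -4.13. In the Dox list alone were the damage kinase gene Atr (fold 3.69, log10 FDR -1.71) and the apoptosis target Perp (fold 2.98, log10 FDR -2.12). The Btg2 relative Btg3 (fold 2.48, log10 FDR -9.42) and the checkpoint kinase gene Chek2 (fold 1.76, log10 FDR -6.96) were also in the Dox list alone, with stronger support.

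**Figure D5:**
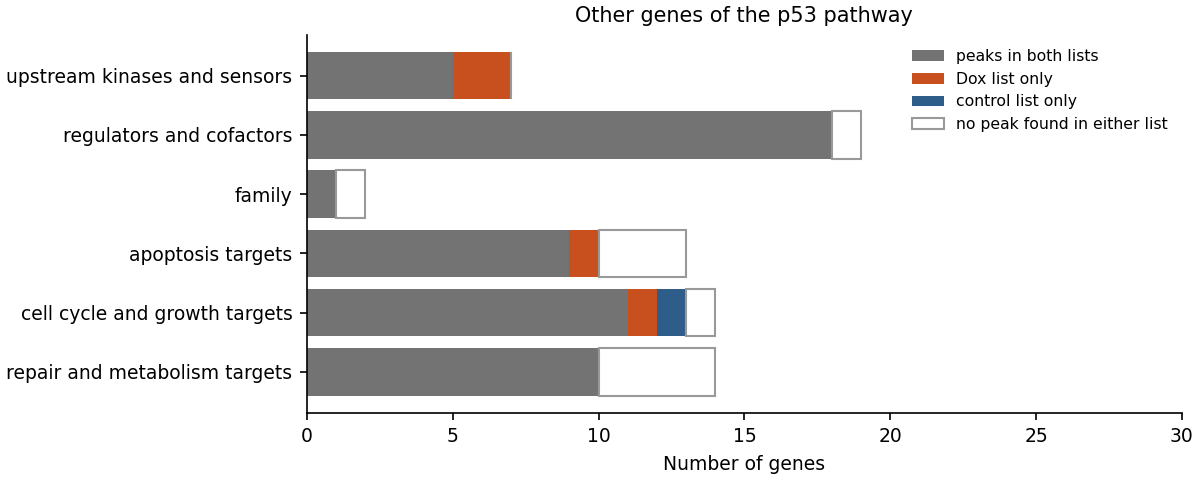
Number of other p53 pathway genes by role, split by whether peaks were found in both lists (grey), the Dox list only (orange), the control list only (blue) or neither (open). Most bars are grey (54 of the 59 genes with a peak), and 4 genes (6.78%) fall in the Dox list only and 1 (1.69%) in the control list only. All genes with a peak, with or without a symbol, give 11.1% and 8.92%.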

How the data were processed

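The authors deposited 1 exomePeak table and 1 shorter list per condition, each tied by the labels to all 4 libraries of that condition. TopHat2 2.1.1, FastQC 0.11.5 and the build mm10 appear in the submitters' processing notes. For exomePeak, the version, settings, scaling and gene models were not given in the sources used here. Per the file headers, the deposited columns hold a fold ratio of IP over input, a p-value, and scores that are the log10 of the p-value and of the FDR. The log10 FDR was minus infinity for 371 Dox and 888 control peaks, and for such peaks of the 9 genes log10 p is given instead. The shorter lists were checked to equal the filter stated above. Symbols were assigned by location to RefSeq (GRCm38.p6) intervals holding at least 50% of an identifier's peak midpoints on its strand, which named 10610 identifiers. Peaks were placed by the midpoint of their exonic length in genes of at least 3000 nt. Overlap calls had no errors on simulated peaks. All 9 genes were named, with up to 4 wider-list genes per class by highest fold. The members and lists were chosen with earlier results of these data known. Coordinates are 1-based. Python 3.11.15, numpy 2.4.6, pandas 2.3.3, scipy 1.17.1 and matplotlib 3.10.9 were used.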

Additional observations from a re-analysis of the deposited data

How the results depend on the processing

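No paired analysis was possible because each list pools both replicates, so no replicate could be left out either. The share of member peaks without a counterpart ranged over the other thresholds and overlap rules between 0% and 25% in the Dox list and between 6.67% and 41.7% in the control list. With folds of 4 or more in both lists, the count was 0 of 7 Dox peaks, against 31.6% of all Dox peaks, and 5 of 12 control peaks (41.7%), against 45.7% of all control peaks. In the authors' shorter lists it was 3 of 12 Dox peaks (25%), against 22.3% of all, and 5 of 14 control peaks (35.7%), against 24% of all, so the member shares there stood above those of the whole lists. Requiring 50% overlap, whole spans or either strand moved neither share. Leaving out 1 gene at a time gave 6.67% (without Ccng1) to 14.3% in the Dox list and 7.14% (without Zmat3) to 25% in the control list, and counting the nested Zmat3 pair once gave 16.7%; both were added after the data were seen. A fold of at least 4 kept 7 Dox and 12 control peaks. With 200 nt in place of 500 nt at the gene start, 1 Dox and 3 control peaks were placed there, and with 500 nt at the gene end, 1 Dox and 1 control peak. Pathway genes in the Dox list only numbered 2 at a log10 FDR of -5 or less, 1 at a fold of at least 4 and 1 in the shorter lists, and in the control list only 5, 11 and 5. Over all genes the shares at these thresholds were 9.76%, 12% and 9.74% in the Dox list only and 12.9%, 27.9% and 14.2% in the control list only, so the order turned there too. Read depth is unknown, and many folds of weak peaks, though not all, move in steps.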
